A study of Mus musculus with 4 samples.

Results

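Glutamatergic Neurons_3 is one of the neuronal sub-clusters that the authors annotated in single-nucleus RNA sequencing of the mouse hypothalamus. Its members were all nuclei of the main cluster Neurons_1 whose deposited sub-cluster label is Glutamatergic Neurons_3. They numbered 2956 of 56386 annotated nuclei, or 5.24%, and 8.27% of the 35756 nuclei of Neurons_1. The hypothalamus came from 12 adult male mice bred on C57/BL6NCr, 6 wild type (WT) and 6 heterozygous for the R384C mutation of the thyroid hormone receptor TRα1 (TRα1+m), a germline change present in every cell that lowers the affinity of the receptor for its hormone. Tissue of 3 mice of a genotype was pooled for each library, and 2 independent experimental repeats each gave a WT and a TRα1+m library, so that n = 2 pools per genotype. Transcripts of the mutated and the normal allele are counted together, and the count of Thra transcripts therefore cannot check the genotype labels.

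Glutamatergic neurons release the excitatory transmitter glutamate, which the vesicular transporter VGLUT2, encoded by Slc17a6, loads into synaptic vesicles in most of the hypothalamus and other deep brain regions. In the posterior hypothalamus, neurons of the supramammillary and subthalamic areas arise near the ventral midline of the developing diencephalon and are known for the transcription factors Lmx1a, Lmx1b, Foxa1, Foxa2 and Barhl1. Lmx1a, Lmx1b and the Foxa factors are also used by the dopamine neurons of the adjoining midbrain, and supramammillary neurons are known for projections to the hippocampus and for the peptide substance P, made from Tac1.

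The sub-cluster held 850 nuclei in WT repeat 1, 703 in WT repeat 2, 830 in TRα1+m repeat 1 and 573 in TRα1+m repeat 2. These gave 4561696, 4617610, 4253006 and 3628196 unique molecular identifiers (UMIs, one per counted transcript) in the same order. The median nucleus had 4927.5, 6071, 4661 and 5855 UMIs and 2405.5, 2883, 2340.5 and 2858 detected genes, so that the nuclei of repeat 2 were deeper in both genotypes. Only 2 barcodes occurred in more than 1 library among these nuclei. Levels are given below as CPM, the UMIs of a gene divided by all UMIs of the same nuclei in a library and scaled to the usual common total.

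The label was borne out by the transmitter genes. Slc17a6 (ENSMUSG00000030500, chr7:51622006-51671119, plus strand, GRCm38) was at 192.5 CPM in WT repeat 1, 307 in WT repeat 2, 179 in TRα1+m repeat 1 and 289 in TRα1+m repeat 2, a mean of 242 ± 65.3 (SD, n = 4 libraries). That level lay close to the 250.0 ± 67.2 of Glutamatergic Neurons_1 and the 235 ± 46.2 of Glutamatergic Neurons_2, below the 370.4 ± 104 of CART Neurons_1, and above the 51.1 ± 7.39 of the GABA neurons. The first 3 of these means differed by less than the spread over their libraries. A UMI of Slc17a6 was found in 66.4% of the nuclei, against 11% of oligodendrocytes, which should lack it and in which free RNA from broken cells is counted. The oligodendrocytes were shallower, with medians of 1493, 1811.5, 1516 and 1663 UMIs in the 4 libraries, and with each nucleus thinned to 1000 UMIs the shares were 21.4% and 6.96%. The GABAergic genes were low: Gad2, which makes GABA, averaged 45.4 CPM against 266 in the GABA neurons and 91.3 in oligodendrocytes. After thinning, 3.92% of the nuclei held a UMI of Gad2 and 2.24% one of Gad1, against 8.97% and 6.92% of oligodendrocytes, so that both were under the background of free RNA. Slc32a1, the vesicular GABA transporter, averaged 29.5 CPM over the sub-cluster and was highest in a single group of nuclei described below.

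What set these nuclei apart from the other neurons was the posterior hypothalamic transcription factor program. The comparison that follows is a description, since the clusters were built from the same genes, and it sets the mean of the 4 libraries against the equally weighted mean of 11 other neuronal sub-clusters, each represented by 10 or more nuclei per library. Lmx1a (ENSMUSG00000026686, chr1:167689237-167848741, plus strand) led the list at 140, 130, 115 and 152 CPM in the 4 libraries in the order above, a mean of 134 ± 15.7 against 1.73 in the others. Of all Lmx1a UMIs in Neurons_1, 2275 of 2556 or 89.0% lay in these 2956 nuclei. Its relative Lmx1b (ENSMUSG00000038765, chr2:33560965-33640511, minus strand) was at 42.5, 60.4, 32.7 and 59.3 CPM, and 82.9% of its Neurons_1 UMIs were found here. A UMI of Lmx1a was seen in 46.8% of the nuclei, in 0.842% of Glutamatergic Neurons_1, in 0.511% of Glutamatergic Neurons_2 and in 0.328% of oligodendrocytes; after thinning to 1000 UMIs the first share was 11.9% and that of oligodendrocytes 0.222%. All 6 members of the list of supramammillary and subthalamic markers were above the mean of the other sub-clusters. Of these Foxa1 at 3.64, Barhl1 at 3.27 and Foxa2 at 0.686 CPM were near the limit of detection. The markers of the neighbouring mammillary nucleus were low: Foxb1, Lhx1, Lhx5, Sim2, Barhl2 and Nkx2-4 each averaged under 5 CPM.

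**Figure D1:**
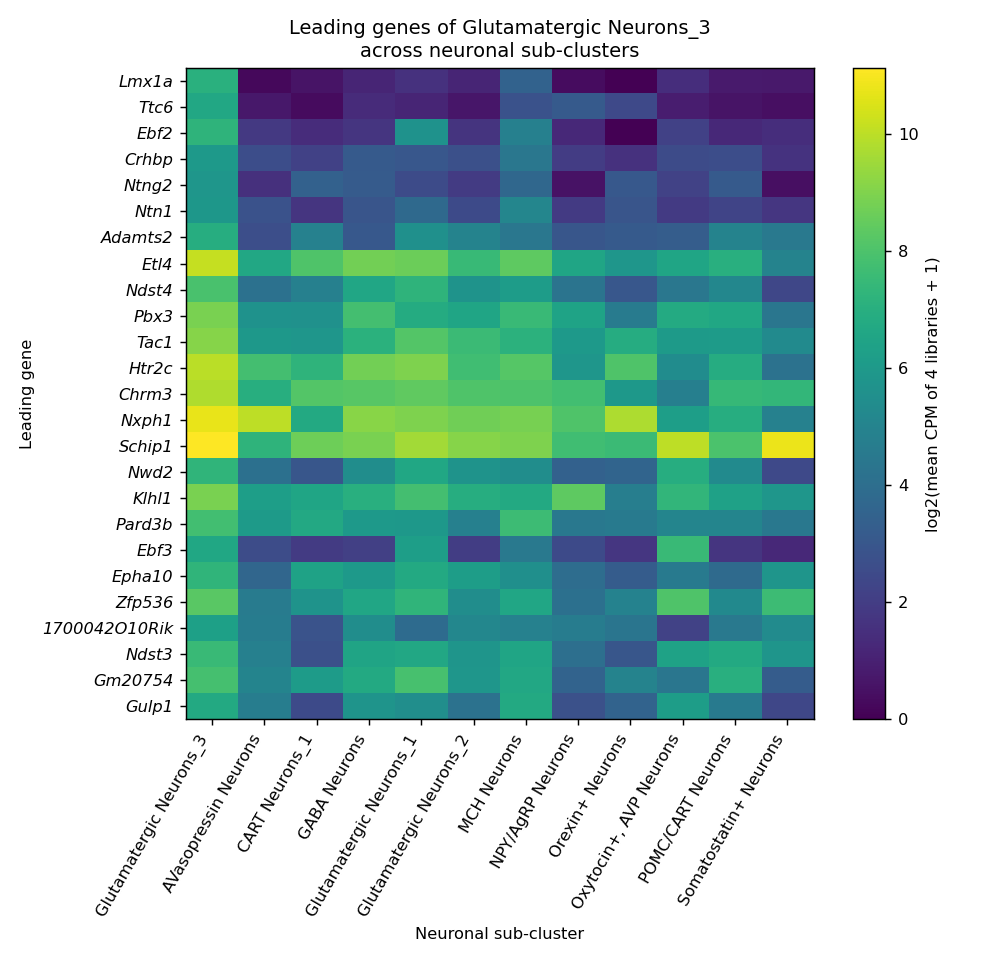
Mean level of the 25 leading genes (rows) in Glutamatergic Neurons_3 (first column) and the 11 other neuronal sub-clusters (columns), as log2(CPM + 1) of the mean of 4 libraries. Lmx1a and Ttc6 stand out in the first column, at 134 and 101 CPM against 1.73 and 2.22 for the mean of the others.

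The 25 leading genes covered several roles. Among transcription factors, Ebf2 averaged 148 CPM against 8.54 in the others, Ebf3 98.5 against 27.7, Pbx3 482 against 95.8 and Zfp536 315 against 92.3. Zfp536 was higher still in oligodendrocytes, at 1461 CPM. Ebf2 was also found in Glutamatergic Neurons_1 at 49.4 CPM, and Ebf3 was higher in the oxytocin and vasopressin neurons, at 184 CPM. Receptors for modulatory transmitters formed another set: Htr2c, a serotonin receptor, averaged 999 CPM against 210.3, and Chrm3, a muscarinic acetylcholine receptor, 893 against 202. The highest of the other sub-clusters for both was Glutamatergic Neurons_1, at 504.5 and 340.5 CPM. Peptide and secreted genes included Tac1 at 549 CPM against 111, Crhbp, which binds corticotropin-releasing hormone, at 63.7 against 6.05, and Nxph1, a secreted synaptic protein, at 1759 against 404.5. Tac1 was at 282.5 CPM in Glutamatergic Neurons_1, and Nxph1 at 1025 in the AVasopressin neurons. Guidance and matrix genes were Ntng2 at 57.0 against 5.43, Ntn1 at 58.0 against 7.66, Adamts2 at 123 against 19.5, and the heparan sulfate enzymes Ndst4 at 244 against 45.2 and Ndst3 at 188 against 58.0. Ttc6, Etl4, Schip1, Nwd2, Klhl1, Pard3b, Epha10, 1700042O10Rik, Gm20754 and Gulp1 completed the list. Gm20754 averaged 227 CPM here and 234 in Glutamatergic Neurons_1, and its highest library was TRα1+m repeat 1 at 377. Gulp1 was at 106.0 CPM here and 106.5 in the MCH neurons. Astrocytes had more Pard3b, at 525 CPM against 218 here, and more Gulp1, at 199.5. At the other end were genes of peptide and histamine neurons, among others. Hdc averaged 2.88 CPM against 93.2 in the others, Pomc 14.2 against 231 and Npy 14.2 against 195. Hdc was highest in the Orexin+ neurons at 974 CPM, Pomc in the POMC/CART neurons at 2277 and Npy in the NPY/AgRP neurons at 1908. Flt1, at 2.19 CPM against 69.9, and Slco1a4, at 1.98 against 62.8, also lay there. Both were highest in the MCH neurons, at 742 and 674 CPM.

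Most of the listed receptor, channel and adhesion genes were higher here than on average in the other sub-clusters. Of the 17 ionotropic glutamate receptor genes tested, 12 were above the mean of the other sub-clusters, as were 12 of 19 GABA and glycine receptor genes, 18 of 28 potassium and HCN channel genes, 17 of 22 sodium and calcium channel genes and 45 of 63 genes of synaptic adhesion and axon guidance, against 4730 of all 14246 genes tested. The kainate receptor gene Grik2 averaged 2629 CPM against 1735 and the potassium channel gene Kcnq5 1134 against 678.

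Inside the sub-cluster, graph clustering of the nuclei gave 16 groups, here numbered by size. Of these, 13 groups with 2696 nuclei, or 91.2%, had Lmx1a at 100 CPM or more, between 107 and 214 CPM, and Slc17a6 between 181 and 380 CPM. Group levels are means over the libraries with at least 10 nuclei of the group, and the genes that lead a group are a description, since they made it. The 3 remaining groups were group 13, with Lmx1a at 55.9 CPM, and groups 10 and 16, with Lmx1a at 0.624 and 0 CPM.

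**Figure D2:**
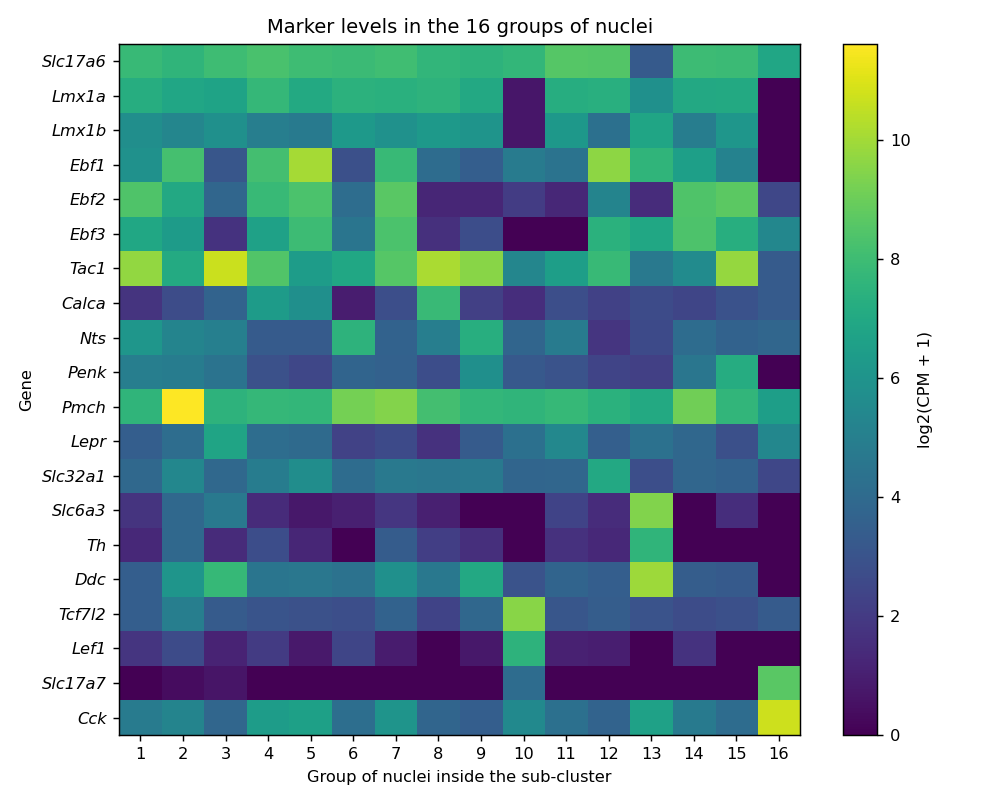
Level of selected genes (rows) in the 16 groups of nuclei inside the sub-cluster (columns), as log2(CPM + 1). Slc17a6 and Lmx1a run through groups 1 to 9, 11, 12, 14 and 15, while groups 10, 13 and 16 carry Tcf7l2 and Lef1, Slc6a3 and Ddc, and Slc17a7 and Cck.

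The Lmx1a groups differed in their Ebf factors and peptides. Groups 1, 5, 7, 14 and 15 had Ebf2 between 326 and 411 CPM, whereas groups 3, 6, 8, 9, 11 and 12 had it at 36.9 CPM or less. Group 1 with 387 nuclei was led by the cadherin Cdh23 at 212 CPM and by Ntng2 at 180, and held Tac1 at 854 CPM. Cdh23 was higher in group 6, at 253 CPM. Group 3 with 311 nuclei combined Calcr, the calcitonin receptor, at 124 CPM with Lepr, the leptin receptor, at 111 and the highest Tac1 of all groups at 1644 CPM. Group 4 with 279 nuclei carried the nuclear factors Nfia at 661 and Nfib at 383 CPM beside Adgrv1 and C1ql1. Group 5 with 214 nuclei held most of the Crhbp, at 658 CPM, with Dach2 at 275 and Ebf1 at 1078. Group 6 with 207 nuclei had Npsr1, the receptor of neuropeptide S, at 405 CPM, and Nts, which makes neurotensin, at 183. Group 7 with 191 nuclei was led by Dach1 at 572 CPM.

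Smaller groups carried other peptides. Calca, which makes calcitonin gene-related peptide, reached 232 CPM in the 163 nuclei of group 8, with the relaxin receptor gene Rxfp1 at 261 and Tac1 at 1123. In the 155 nuclei of group 9, the glycine receptor gene Glra3 was at 857 CPM and Foxp2 at 1071. Fgf10, a growth factor, was at 128 CPM and Zfhx3 at 2735 in the 133 nuclei of group 11. Group 12, with 126 nuclei, was the only group with Slc32a1 above 60 CPM, at 126, beside Slc17a6 at 368, and it had Etl4 at 7338 and Cnbd1 at 626 CPM. Casz1 and the serotonin receptor gene Htr1f, at 106 and 476 CPM, led the 78 nuclei of group 14. Penk, which makes enkephalin, was at 146 CPM in the 74 nuclei of group 15, with Trpm3 at 6104.

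Group 2, with 378 nuclei, was led by Pmch, which makes melanin-concentrating hormone, with Adarb2 at 1209 and Npas3 at 555 CPM. Its Pmch was at 208 CPM in WT repeat 1, 4265 in WT repeat 2, 431 in TRα1+m repeat 1 and 7694 in TRα1+m repeat 2. Over the whole sub-cluster only 19 nuclei held 20 or more Pmch UMIs, 8 of them in this group, and the share of nuclei with any Pmch UMI was 58.3% against 56.7% in oligodendrocytes, and 19.0% against 41.6% after thinning. Apart from those few nuclei, Pmch was therefore at the background of free RNA.

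Group 13 had the genes of dopamine synthesis and transport. Its 86 nuclei, 35, 20, 11 and 20 in the 4 libraries, held the dopamine transporter gene Slc6a3 at 474, 1017, 469 and 799 CPM, and Th, the first enzyme of dopamine synthesis, at 194, 151, 243 and 175 CPM. Ddc, the second enzyme, averaged 960 CPM, the vesicular monoamine transporter gene Slc18a2 664 and Aldh1a1 316. Slc17a6 was at 14.4, 6.28, 0 and 14.0 CPM, below the level of oligodendrocytes in each library, so that the marker of the sub-cluster was not detectable above background in these nuclei. Lmx1b, at 112 CPM, was higher than in any other group.

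Groups 10 and 16 were tied to single repeats. The 141 nuclei of group 10 comprised 15 from WT repeat 1 and 126 from TRα1+m repeat 1, and none came from repeat 2. In these libraries Tcf7l2 was at 801 and 685 CPM, Lef1 at 220 and 144, and Prox1 at 98.8 and 48.7. These are 3 of the 8 markers listed for thalamic and habenular neurons, of which Gbx2 averaged 0.624 CPM and Pou4f1 was at 0. Cdh23, also listed, was at 2.50 CPM, and Calb2 at 59.6 lay within the range of the other groups. Rora was at 1570 CPM, below groups 14 and 16 at 1624 and 2843. Prox1 was higher in group 12, at 103 CPM. All 33 nuclei of group 16 came from TRα1+m repeat 2. They held Slc17a7, the transporter VGLUT1, at 404 CPM, Cck at 1700 and Eomes and Cdhr1 at 175 and 471, with olfactory receptor transcripts such as Olfr111 at 215. Eomes and Cdhr1 are known from projection neurons of the olfactory bulb, and no marker list used here covered that region, so the group was left unnamed. Together the 2 groups made 174 nuclei, and 2782 nuclei remained without them. The counts of called genes, and the genes whose values they move most, are given with and without them.

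**Figure D3:**
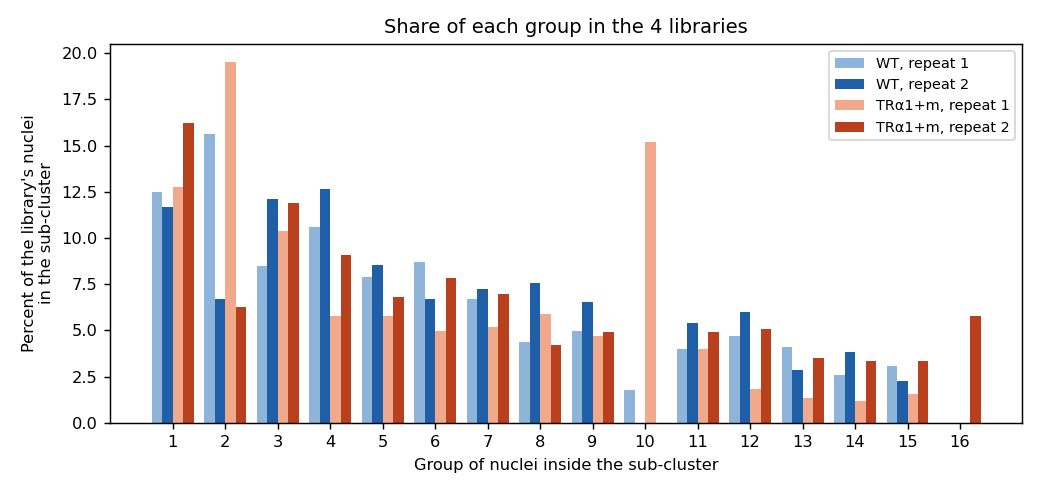
Share of each group among the sub-cluster's nuclei of a library, in percent, for the 16 groups and 4 libraries. Group 10 holds 15.2% of the nuclei of TRα1+m repeat 1 and 1.76% of WT repeat 1, and group 16 holds 5.76% of TRα1+m repeat 2 and none elsewhere.

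The shares of the other 14 groups, counted among the 2782 nuclei, were compared over the libraries. Group 1 made 12.7% and 11.7% in the WT libraries and 15.1% and 17.2% in the TRα1+m libraries. Group 4 made 10.8% and 12.7% in WT and 6.82% and 9.63% in TRα1+m. In total both TRα1+m libraries lay above both WT libraries in 2 groups, below them in 2 groups, and overlapped with them in 10. With 2 libraries against 2, a two-sided exact permutation test cannot go below p = 0.333. The largest split was between the repeats: group 2 made 15.9% and 23.0% in repeat 1 and 6.69% and 6.67% in repeat 2.

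The first question of the genotype comparison was whether the mutation changed how many neurons of this kind were recovered. They made 8.89% and 8.04% of the Neurons_1 nuclei in WT repeats 1 and 2 and 7.82% and 8.40% in TRα1+m, or 8.46% ± 0.603 against 8.11% ± 0.411 (SD, n = 2 libraries each). With all nuclei the share was lower in TRα1+m in repeat 1 and higher in repeat 2, a difference of -0.355 percentage points (two-sided exact permutation test, p = 0.667, 2 against 2 libraries). Without the nuclei of groups 10 and 16 the shares were 8.73% and 8.04% in WT and 6.63% and 7.91% in TRα1+m. They were then lower in TRα1+m in both repeats and did not overlap, with a difference of -1.11 percentage points (exact permutation test, p = 0.333). The nuclei left out were 15 of WT repeat 1, 126 of TRα1+m repeat 1 and 33 of TRα1+m repeat 2. All Neurons_1 nuclei stayed in the denominator, so the removal itself lowered the TRα1+m shares more than the WT shares. As a share of all annotated nuclei, the whole sub-cluster made 5.80% and 5.28% in WT and 5.05% and 4.78% in TRα1+m, lower in both repeats and without overlap, a difference of -0.622 percentage points (exact permutation test, p = 0.333, the smallest that this design allows).

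Gene expression was then compared over the 4 summed libraries. Of 14246 genes tested, 0 passed an adjusted p of 0.05 in the quasi-likelihood test of edgeR (percent called 0), with 172 at an unadjusted p under 0.05. DESeq2 also called 0, with 51 at an unadjusted p under 0.05. With the repeat as a block, which compares TRα1+m with WT inside each repeat, edgeR called 5 genes, or 0.0351%, of which 4 were higher and 1 lower in TRα1+m. Without groups 10 and 16 and with the block it called 10 of 14009, or 0.0714%, 2 higher and 8 lower, whereas without the block it called 0, with 158 at an unadjusted p under 0.05, and DESeq2 called 0, with 29.

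Of the 5 genes called with the block, Gm29478, Cck and Kitl were not called without the groups of single repeats. Gm29478, a long noncoding RNA, was at 3.07 and 0.433 CPM in WT repeats 1 and 2 and 54.5 and 2.20 in TRα1+m, with a blocked log2 difference of 3.93 (edgeR, adjusted p = 0.00726), and 92.2% of its UMIs lay in group 10. Without the 2 groups it was at 0.447 and 0.433 CPM in WT and 2.32 and 2.06 in TRα1+m and was too low to be tested by edgeR, while DESeq2 gave a log2 difference of 2.25 (adjusted p = 1.00). Cck, which makes cholecystokinin, was at 17.1, 61.9, 39.7 and 143 CPM in WT repeats 1 and 2 and TRα1+m repeats 1 and 2. Without the 2 groups the last of these values was 41.1 CPM, and the log2 difference went from 1.17 with the block (edgeR, adjusted p = 0.0236) to -0.01. Kitl, the ligand of the receptor Kit, was at 14.0 and 3.90 CPM in WT and 42.3 and 21.5 in TRα1+m, and its blocked log2 difference was 1.85 with all nuclei (edgeR, adjusted p = 0.049) and 0.29 without the 2 groups.

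The remaining calls, Ret and AC149090.1, also passed without these groups. Ret (ENSMUSG00000030110, chr6:118151745-118197718, minus strand), the receptor tyrosine kinase for the GDNF family, was at 35.7 CPM in WT repeat 1 and 74.9 in WT repeat 2, and at 11.8 and 29.5 in the TRα1+m repeats. The value was lower in TRα1+m in both repeats, although WT repeat 1 and TRα1+m repeat 2 lay near each other. The log2 difference was -1.47 ± 0.52 (SE) without the block and -1.49 ± 0.16 with it (edgeR, adjusted p = 0.0236), and -1.35 with the block and without the 2 groups (adjusted p = 8.6e-05). Ret was highest in group 13, at 199 CPM over its pooled UMIs, and outside that group it was at 30.6 and 62.8 CPM in WT and 10.5 and 24.1 in TRα1+m, the same order as in all nuclei. DESeq2 with the block also called it (adjusted p = 0.019).

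AC149090.1, a protein-coding gene model on an unplaced scaffold that resembles the phosphatidylserine decarboxylase gene Pisd, was at 584 and 372 CPM in WT repeats 1 and 2 and at 1206 and 623 in TRα1+m. Its log2 difference with the block was 0.86 ± 0.11 (edgeR, adjusted p = 0.049) and 0.88 without the 2 groups (adjusted p = 4.3e-06). The same order was seen in oligodendrocytes, at 149 and 114 CPM in WT and 278 and 163 in TRα1+m, and Glutamatergic Neurons_1 gave a blocked log2 difference of 1.15. Pisd itself was at 44.7, 31.0, 56.9 and 39.7 CPM. As reads can be shared between similar genes, the level of each is uncertain.

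**Figure D4:**
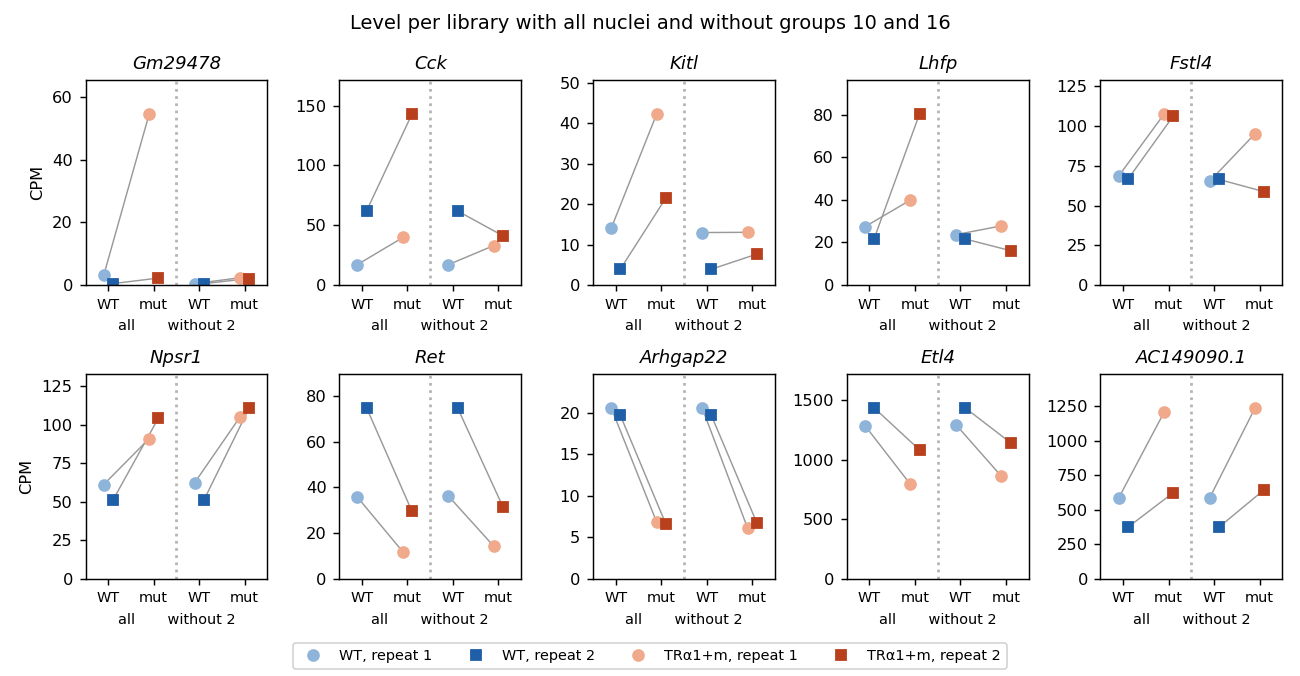
CPM of 10 genes in each library, with all nuclei (left of the dotted line) and without groups 10 and 16 (right); circles are repeat 1 and squares repeat 2, and grey lines join the 2 genotypes of a repeat. Gm29478, Cck, Kitl and Lhfp differ less between genotypes on the right, whereas Ret, Arhgap22, Etl4, Npsr1 and AC149090.1 keep it.

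Without the 2 groups, the blocked test added Arhgap22, Npsr1, Etl4, Vav3, Frmpd1, Csf2rb2, Dock6 and Lgi3. Arhgap22 (ENSMUSG00000063506, chr14:33214026-33369934, plus strand), a GTPase-activating protein, was at 20.6 and 19.7 CPM in WT and 6.82 and 6.61 in TRα1+m over all nuclei. The genotypes did not overlap, and the log2 difference was -1.62 ± 0.26 (unadjusted p = 0.00082, edgeR adjusted p = 1.00) in the unblocked fit and -1.70 with the block and without the 2 groups (adjusted p = 0.00092). Group 14, where it was highest, held 5.46% of its UMIs. Npsr1 (ENSMUSG00000043659, chr9:24097996-24316398, plus strand) was at 61.2 and 50.9 CPM in WT and 91.0 and 104 in TRα1+m, with a log2 difference of 0.88 in the blocked fit without the 2 groups (edgeR, adjusted p = 0.00092). In group 6, where it was highest, it was at 273 and 306 CPM in WT and 509 and 531 in TRα1+m, and in all other nuclei at 43.9 and 34.4 against 71.2 and 72.8. The share of group 6 was 8.86% and 6.69% in WT and 5.82% and 8.33% in TRα1+m, with overlap.

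Etl4, a leading gene of the sub-cluster that codes for a cytoskeletal protein, was at 1286 and 1435 CPM in WT and 792 and 1081 in TRα1+m (log2 difference -0.51 ± 0.08, edgeR adjusted p = 0.0045 in the blocked fit without the 2 groups). Group 12 held 37.8% of its UMIs, and the share of that group was lowest in TRα1+m repeat 1, at 2.13% against 4.79%, 5.97% and 5.37% in the other libraries. Outside group 12, Etl4 was at 802 and 927 CPM in WT and 657 and 651 in TRα1+m, and inside it at 7949 and 7787 against 6974 and 6644. Vav3, a guanine nucleotide exchange factor, was highest in group 10: over all nuclei it was at 119, 90.3, 146 and 53.7 CPM in the order of the libraries, and without the 2 groups at 104 and 90.3 in WT and 51.9 and 55.8 in TRα1+m (blocked log2 difference -0.90, edgeR adjusted p = 0.00092). The other 4 genes, Frmpd1, Csf2rb2, Dock6 and Lgi3, had blocked log2 differences of -1.18, -1.68, -1.25 and -0.89 without the 2 groups. Csf2rb2 was at 11.6 and 15.8 CPM in WT and 2.12 and 6.06 in TRα1+m, and its unblocked log2 difference with all nuclei went from -1.81 to -2.69 without TRα1+m repeat 2. Lgi3 was higher in oligodendrocytes, at 108 and 273 CPM in WT and 76.9 and 191 in TRα1+m, than in these neurons, and the part of free RNA in its difference was not tested.

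As no gene passed the unblocked test, the genes with the lowest unadjusted p and the same direction in both repeats are given as values only. Upwards these were Npsr1, Fstl4, Gm15997, Il1r2, Tefm, Lhfp, Cwh43, Bace2, Gm48550 and Hpgd, with log2 differences from 0.63 to 2.13 and unadjusted p from 0.0067 to 0.0165. Lhfp, at 27.4, 21.7, 40.0 and 80.5 CPM, had its highest level in group 16, and without the 2 groups its log2 difference went from 1.24 to -0.10. Fstl4, a follistatin-like protein, went from 0.63 to 0.18, Cwh43 from 1.26 to 0.70 and Hpgd from 1.13 to 0.67, and all of these were highest in group 16. Bace2, also highest there, and Gm48550 were too low to be tested by edgeR without the 2 groups, where DESeq2 gave log2 differences of 0.58 for Bace2 and 2.18 for Gm48550. Bace2 was at 1.53 and 0.866 CPM in WT and 5.17 and 3.58 in TRα1+m here, and higher in oligodendrocytes, at 4.63 and 5.16 in WT and 24.4 and 33.7 in TRα1+m, and the part of free RNA in its difference was not tested. Downwards they were Arhgap22, Frmpd1, Stac2, 9030622O22Rik, Ttc9b, Csf2rb2, 9530026P05Rik, Gm15155, Dock6 and Pappa, with log2 differences from -1.81 to -0.62 and unadjusted p from 0.00082 to 0.013. Stac2, a channel-associated adaptor, was at 11.8 and 14.7 CPM in WT and 5.64 and 5.51 in TRα1+m, and Pappa, a protease acting on insulin-like growth factor binding proteins, at 35.7 and 30.8 against 16.5 and 21.5.

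The genes through which thyroid hormone acts were examined next. TRα1 and TRβ bind the hormone in the nucleus and recruit corepressors such as Ncor1 or coactivators such as Ncoa1. Of the 15 genes of receptors and cofactors tested, 0 passed in the unblocked or blocked fit; both TRα1+m libraries lay below both WT libraries in 2 and above in 1, against 9.08% and 15.7% of all genes tested. Thra was at 93.2 and 115 CPM in WT and 70.8 and 83.8 in TRα1+m, a log2 difference of -0.47 ± 0.18 (unadjusted p = 0.0377, edgeR adjusted p = 1.00), and oligodendrocytes had the same order, at 254 and 280 CPM against 200.3 and 217. Thrb, at 214 and 208 CPM in WT and 247 and 201 in TRα1+m, overlapped between genotypes. Of the 6 transport and metabolism genes tested none was called. Among 32 genes listed as responding to thyroid hormone, 9 lay below WT in both TRα1+m libraries and 1 above, their median log2 difference was -0.26 against 0.01 for all genes, and none passed. Klf9, a transcription factor induced by the hormone in many tissues, was at 34.9 and 32.5 CPM in WT and 26.6 and 20.1 in TRα1+m, and in oligodendrocytes at 111 and 116 against 75.0 and 76.0. Reln was the gene above WT in both TRα1+m libraries, at 38.8 and 29.0 CPM in WT and 50.6 and 133 in TRα1+m, and it was at 1650 CPM in group 16. Its log2 difference was 1.38 with all nuclei and 0.41 without the 2 groups.

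The 13 genes encoded by the mitochondrial genome had a median log2 difference of -0.48, and 8 of them were lower in both TRα1+m libraries than in either WT library, against the 9.08% of all genes. None passed the test with or without the block. For mt-Co3, a subunit of cytochrome oxidase, the values were 2143 and 3055 CPM in WT and 1978 and 1652 in TRα1+m, a log2 difference of -0.55 ± 0.20 (unadjusted p = 0.0358, edgeR adjusted p = 1.00). Mitochondrial transcripts in a nucleus preparation come from outside the nucleus, and in oligodendrocytes mt-Co3 was at 6527 and 6695 CPM in WT and 5513 and 4341 in TRα1+m. The part of free RNA in these differences was not tested. Among the other genes the study named for neurons, Grm8, Lrrtm4 and mt-Atp6 had log2 differences of -0.04, -0.07 and -0.56, and Oxt, at 212, 32.5, 146 and 30 CPM, followed the repeats.

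Identity genes showed no called difference between genotypes. The 5 tested members of the supramammillary and subthalamic list included Lmx1a, with a log2 difference of -0.06 ± 0.18 (0.09 without the 2 groups), and Lmx1b, at -0.21 ± 0.32. Slc17a6 had a log2 difference of -0.14 ± 0.29. The 54 regional transcription factors tested had a median of -0.09, with 10 below and 2 above WT in both TRα1+m libraries, against 9.08% below and 15.7% above for all genes tested. Neuropeptide genes, 34 tested, had a median of -0.03, and only Cck was called with the block. Of 17 ionotropic glutamate receptor genes 4 lay above and 5 below without overlap, of 28 potassium and HCN channel genes 1 and 5, and of 63 adhesion and guidance genes 7 and 15, beside the same shares of all genes, and none of these was called. The markers of glia moved among the libraries: the 9 oligodendrocyte markers summed to 418, 402, 441 and 309 CPM and the 8 astrocyte markers to 365, 335, 455 and 252, with Mbp and Slc1a2 the most abundant and no marker at 0, so that TRα1+m repeat 2 was the lowest for both. Markers of endothelial and mural cells summed to 32.4 CPM or less. Their part in the genotype values was not tested. Leaving out every nucleus with markers of other types left 241, 197, 196 and 236 nuclei in the libraries, and values moved both ways. The log2 difference of Frmpd1 went from -1.27 to -0.56, that of Dock6 from -1.32 to -0.87 and that of Etl4 from -0.58 to -0.38, whereas that of Kitl went from 1.80 to 2.68 and that of Lhfp from 1.24 to 1.86.

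To ask whether genotype differences differed between glutamatergic sub-clusters, an interaction term was fitted with each library as a block. Against Glutamatergic Neurons_1, 2 of 15382 genes passed, or 0.013%, and against Glutamatergic Neurons_2, 4 of 14920, or 0.0268%. Cck, with a difference of 1.25 ± 0.16 against Glutamatergic Neurons_1 (edgeR, adjusted p = 0.0258), was highest in group 16 and had a difference of 0.08 without groups 10 and 16. Fstl4 and Deptor, with differences of 0.85 ± 0.12 and 0.97 ± 0.16 against Glutamatergic Neurons_2 (edgeR, adjusted p = 7.4e-05 and 0.00204), were likewise highest in group 16. Deptor, an inhibitor of the growth kinase mTOR, was at 28.3 and 21.9 CPM in WT and 35.7 and 40.5 in TRα1+m here, and at 146 and 104 against 107 and 86.6 in Glutamatergic Neurons_2. Without the 2 groups their differences were 0.39 and 0.16, and neither passed. Gm4876, a predicted gene, passed with and without the 2 groups against Glutamatergic Neurons_2: it was at 119 and 137 CPM in WT and 112 and 118 in TRα1+m here, and at 59.2 and 65.3 against 105 and 92.8 there, a difference of -0.81 ± 0.12 with all nuclei (adjusted p = 0.00031) and -0.71 without the 2 groups. No gene passed in either comparison with no library block or without WT repeat 2.

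The repeats differed far more than the genotypes. Of the 14246 genes, 1733 or 12.2% passed between repeats, 989 or 6.94% higher and 744 or 5.22% lower in repeat 2. Across the 3855 genes with a mean of at least 50 CPM, the log2 difference between repeats in WT and that in TRα1+m, which share no library, had a Pearson correlation of 0.785. This is a description across genes, which are not independent, and all nuclei of a repeat share their preparation and depth. Without groups 10 and 16, 2384 genes passed, 1267 higher and 1117 lower.

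**Figure D5:**
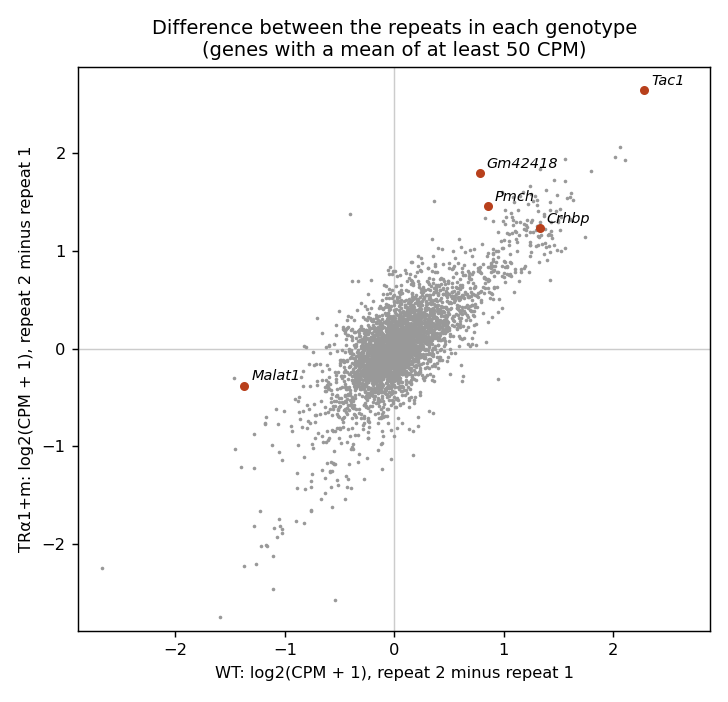
Difference between the repeats for each gene with a mean of at least 50 CPM, as log2(CPM + 1) in repeat 2 minus repeat 1, in the WT libraries (horizontal axis) and in the TRα1+m libraries (vertical axis). The points lie along the diagonal (r = 0.785 across 3855 genes), with Tac1 at the upper right end; red points are the named genes.

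Tac1 (ENSMUSG00000061762, chr6:7554879-7565834, plus strand) had the largest mean rise among these 3855 genes. It was at 170 CPM in WT repeat 1, 827 in WT repeat 2, 165 in TRα1+m repeat 1 and 1033 in TRα1+m repeat 2, a log2 difference of 2.41 between repeats (edgeR, adjusted p = 2.1e-05) and of 0.11 ± 0.11 between genotypes, both with the other factor in the fit. Both libraries of repeat 2 were above both of repeat 1 in 12 of the 14 groups present in all libraries, from 474 and 409 CPM to 2370 and 3321 in group 3 for instance. In oligodendrocytes, Tac1 ran the other way, at 129, 104, 118 and 70.5 CPM in the order of the libraries. Glutamatergic Neurons_1 had the same direction as these nuclei, at 92.2, 403, 107 and 528 CPM. So did Glutamatergic Neurons_2, at 87.9, 264, 107 and 301, and the GABA neurons, at 71.4, 181, 77.2 and 222. In the AVasopressin neurons both repeat 2 libraries were lower, at 48.0 and 37.3 CPM against 75.4 and 83.4. Of the 34 neuropeptide genes tested, 18 were higher and 8 lower in repeat 2, against 6.94% and 5.22% of all genes, with a median of 0.79. Among those higher were Calca at 2.23, Scg2, a granin of secretory vesicles, at 1.17 and Adcyap1, which makes PACAP, at 1.30 on the log2 scale, and among those lower were Oxt at -2.57 and Avp at -1.38, and in oligodendrocytes Oxt was also lower in repeat 2 (737, 185, 513 and 91.5 CPM). Slc17a6 was higher in repeat 2 by 0.62 and Lmx1b by 0.61, while Lmx1a, at 0.08, did not pass.

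The largest rises in repeat 2 were those of Cdhr1, Perp, Tac1, Gpr6 and Nmb, and the largest falls those of Gm29478, Gm45184, Wdr63, Mki67 and Hba-a1. Cdhr1 and Gm29478 belong to groups 16 and 10. Nmb, which makes neuromedin B, was at 2.41 and 8.66 CPM in WT repeats 1 and 2 and at 3.76 and 26.2 in TRα1+m, and the TRα1+m values were 4.35 and 5.29 without the 2 groups. Hba-a1, a haemoglobin chain, was at 2.85, 0, 4.23 and 0.551 CPM here and at 16.6, 2.95, 13.3 and 1.58 in oligodendrocytes. Of 76 ribosomal protein genes, a set picked after the repeat values were seen, 37 were lower and 4 higher in repeat 2, against 5.22% and 6.94% of all genes. The depth of the nuclei moved with the repeats, and with every nucleus thinned to 1000 UMIs 840 of 9371 genes passed, 465 higher and 375 lower.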

How the data were processed

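Nuclei of snap-frozen hypothalamus were sequenced with the 10x Genomics V3.1 chemistry, 4 libraries of 3 pooled mice each. Per the submitters' processing notes, the authors used Cell Ranger 5.0.1 and Seurat on mm10 (GRCm38). According to their methods, introns were counted and nuclei with at least 900 counts, 700 features, at most 5% mitochondrial counts and a doublet score under 0.18 were kept. The deposited matrices hold raw UMI counts for each barcode, without normalization. The deposited annotation gives each nucleus its library, cluster and sub-cluster. According to the paper, the main clusters were made on merged data, and the sub-clusters of Neurons_1 after batch correction across the repeats. Doublets were not scored again.

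Counts were summed per library over the 2956 nuclei. Genes passing filterByExpr (smallest count 10) were tested with edgeR 4.0.16 (TMM factors, robust quasi-likelihood test) in R 4.3.3, with Benjamini-Hochberg adjustment over all genes tested, and with DESeq2 1.42.0 as an alternative. The methods state that each experimental repeat held both genotypes, so the repeat numbers pair the libraries: across 14246 genes, the differences between repeats in WT and in TRα1+m correlated at 0.584. The fit without the block is the main one and the block an alternative, given where it changes the calls. Without the block, p-values measure the spread between pools of mice. With the block, the difference between repeats that both genotypes share is taken out. What is left is how far the genotype difference varies between the 2 repeats. With so few libraries that variation is judged largely from variance shared across genes, and the blocked p-values rest on it. For AC149090.1 the SE was 0.39 without the block and 0.11 with it. Fold changes of sub-cluster levels used a pseudocount of 1 CPM, only for ranking. Groups of nuclei came from Pearson residuals within each library, 2000 variable genes, 15 principal components, 20 neighbours and Leiden clustering (leidenalg 0.10.2) at resolution 0.5. Each test was checked on simulated data.

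The named genes were, for genotype, the calls and, where fewer than 10 passed in a direction, those with the lowest unadjusted p and the same direction in both repeats; the 25 leading genes with at least 50 CPM; the 5 largest differences each way between repeats; the interaction calls; the leading genes of groups with at least 100 CPM; the genes the study named for neurons; and the members of fixed lists. The members and lists were chosen with earlier results of these data known, and genes named beside them were chosen after their values were seen. Coordinates are from GENCODE M21 (GRCm38). Some genes that the rule names are not reported here.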

Additional observations from a re-analysis of the deposited data

Results flagged for a closer look

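The genotype difference was not the same in these neurons as in other glutamatergic sub-clusters for 4 genes in tests of an interaction term in edgeR. Against Glutamatergic Neurons_1 the log2 difference between the 2 genotype effects was 1.25 for Cck. Against Glutamatergic Neurons_2 it was 0.85 for Fstl4, -0.81 for Gm4876 and 0.97 for Deptor. In group 16, which came from a single library, Cck was at 1700 CPM, Fstl4 at 834 and Deptor at 363. Without groups 10 and 16 the differences were 0.08 for Cck, 0.39 for Fstl4 and 0.16 for Deptor, and none of these passed. Gm4876 kept -0.71 (adjusted p = 1.7e-05) without them, and did not pass with no library block or without WT repeat 2, with a highest adjusted p of 1.00 over the alternatives. Gm4876 was highest in groups 12 and 9, at 239.6 and 235 CPM, and its genotype effect in these neurons was -0.19 on the log2 scale against 0.62 in Glutamatergic Neurons_2.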

How the results depend on the processing

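For the genotype comparison, edgeR without the block gave 0 calls with size factors of the RLE method, no filter on low counts, bias-adjusted deviances, equal numbers of nuclei per library and without nuclei with markers of other types. The count was 5 with the replicate block, 6 with bias-adjusted deviances and the block, 3 with DESeq2 and the block, and 10 with the block and without the 2 groups of single repeats; the last 3 and every value without those groups were chosen after seeing the data. Leaving out 1 library without the block gave 0 to 11 calls. The 11 came without TRα1+m repeat 1, where TRα1+m repeat 2 stood alone and was assumed to vary like the others, and included Cdhr1, Slc17a7, Eomes, Olfr111 and Reln, all genes of group 16.

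Between repeats, DESeq2 called 477 genes and the thinned nuclei gave 840, against 1733; leaving out 1 library gave 1177 to 2157. The interaction with Glutamatergic Neurons_1 gave 45 calls with no filter, 0 with no library block, 0 without the 2 groups, and 11, 0, 28 and 113 without WT repeats 1 and 2 and TRα1+m repeats 1 and 2. That with Glutamatergic Neurons_2 gave 29, 0, 11, and then 1, 0, 30 and 122 in the same order. The cause of these shifts was not tested. The share of Neurons_1 nuclei differed by -0.781 to 0.0713 percentage points on leaving out 1 library, by -0.622 as a share of all nuclei, and by -1.11 without the 2 groups, with all Neurons_1 nuclei as the denominator.

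Each of 28 named genes was followed under the alternatives that held a value for it. Of 432 values, 401 kept direction and side of the threshold, 23 passed only under an alternative, and 8 turned. Without the 2 groups, Lhfp was at -0.10 with edgeR, -0.12 with the block and -0.10 with DESeq2, and Cck at -0.14, -0.012 and -0.15. On leaving out 1 library Lhfp ranged from 0.69 to 1.63, Cck from 0.0099 to 2.31 and Vav3 from -1.04 to 0.46, with Vav3 at 0.14 without WT repeat 1 and 0.46 without TRα1+m repeat 2. For genes called with the block, the range without it was 0.30 to 1.32 for AC149090.1, -2.23 to -0.89 for Ret, 0.25 to 5.96 for Gm29478 and 1.12 to 3.02 for Kitl, and for Lgi3, called with the block only without the 2 groups, -1.34 to -0.14. Of the others called in that way, Csf2rb2 ranged from -2.69 to -1.25, Dock6 from -1.79 to -0.96 and Frmpd1 from -1.43 to -1.14.

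The 16 groups became 15 at resolution 0.3, 19 at resolution 0.8 and 18 with 30 components (adjusted Rand index 0.918, 0.848 and 0.740). Groups 10 and 16 were recovered whole at both resolutions (Jaccard index 1), and with 30 components at 0.904 and 1. Other groups were less stable: with 30 components the best Jaccard index was 0.473 for group 6, 0.509 for group 1, 0.547 for group 12 and 0.590 for group 4, at resolution 0.8 it was 0.512 for group 1, 0.564 for group 3 and 0.650 for group 4, and at resolution 0.3 it was 0.267 for group 11.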

Other observations

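Further lists gave no called gene between genotypes in edgeR with or without the repeat as a block, and they are given as counts. Of 7 metabotropic glutamate receptor genes, which act through G proteins, 4 were above both WT libraries in both TRα1+m libraries and 0 below, with a median log2 difference of 0.15, which was 0.00 without groups 10 and 16. Of 49 receptors for peptides and hormones 6 were above and 7 below, of 16 circadian clock genes 2 and 0, and of 7 immediate early genes, which respond to neuronal activity, 0 and 0. For all genes tested, 15.7% were above and 9.08% below.

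Markers of other cell types, read in these neurons, also moved among the libraries. Of 9 oligodendrocyte markers 4 were below WT in both TRα1+m libraries and 0 above, with a median log2 difference of -0.43, and of 4 tested markers of oligodendrocyte precursors 3 were below, against 9.08% below and 15.7% above for all genes. Between repeats, 4 of 8 astrocyte markers were lower in repeat 2 and 0 higher, with a median of -0.85, against 5.22% and 6.94% of all genes. The part of free glial RNA in the other differences was not tested.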
